A study of Mus musculus with 2 samples.

Results

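Short fragments of the RNAs made from the mouse mitochondrial genome were followed in embryonic stem cells kept with an inhibitor of activin, Nodal and TGF-beta signalling or with its solvent. They were chosen as the sequences of 15 to 17 nt that match, exactly and over their whole length, either strand of the 37 mitochondrial genes in GENCODE (2 ribosomal RNA, 22 transfer RNA and 13 protein-coding genes). Of 96471 distinct sequences of 15 to 17 nt, 458 met this rule, with 987 of the 990296 reads of that length in the DMSO library and 384 of 517535 in the SB431542 library. The cells were J1, an embryonic stem cell line of strain 129S4/SvJae that the labels assign to the inner cell mass, so they are the progeny of a single line. They grew on gelatin in Knockout DMEM with Knockout Serum Replacement and LIF at 1000 U/mL, the cytokine that holds mouse stem cells undifferentiated, in both groups alike. For 24 h they were given 3 µM SB431542, which blocks the type I receptor kinases ALK4, ALK5 and ALK7, or the same volume of DMSO. There was 1 library in each group, so no test was possible, no difference has a replicate check, and every 95% interval covers counting error only. Reads of amplified libraries without molecular identifiers are not independent molecules, which such intervals leave out.

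The mitochondrial genome is a small circle read from both strands into long transcripts that span nearly all of it. In most of these the transfer RNAs stand between the other genes, and RNase P and the ELAC2 nuclease cut at their 5′ and 3′ ends, which frees the ribosomal and messenger RNAs as well. The finished transfer RNAs receive a CCA tail, the ribosomal RNAs join mitochondrial ribosomes, and the messenger RNAs encode subunits of the respiratory chain and ATP synthase, on which energy supply by oxidative phosphorylation depends.

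The sequences below show where most of the reads lie: each is the commonest fragment at 1 of the 9 sites with the most reads. Capitals mark the fragment and lower case up to 10 bases of the same strand on each side, all 5′ to 3′ and written with T, from the GENCODE M21 transcripts of the GRCm38 build. In the mt-Tq sequence n marks bases that lie in no gene, and the lower-case start of the last sequence is the end of mt-Tq.
mt-Rnr2, chrM:2238-2254, plus strand: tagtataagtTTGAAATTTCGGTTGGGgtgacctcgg
mt-Rnr1, chrM:586-602, plus strand: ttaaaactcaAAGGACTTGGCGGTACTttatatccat
mt-Rnr1, chrM:744-760, plus strand: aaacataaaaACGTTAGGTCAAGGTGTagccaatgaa
mt-Tp, chrM:15368-15384, minus strand: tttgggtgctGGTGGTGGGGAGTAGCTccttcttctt
mt-Tc, chrM:5215-5231, minus strand: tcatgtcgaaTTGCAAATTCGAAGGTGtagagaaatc
mt-Th, chrM:11558-11574, plus strand: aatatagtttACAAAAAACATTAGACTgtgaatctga
mt-Tm, chrM:3861-3876, plus strand: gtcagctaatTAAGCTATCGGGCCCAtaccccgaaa
mt-Tq, chrM:3826-3842, minus strand: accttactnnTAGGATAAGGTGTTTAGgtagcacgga
antisense of mt-Ti, chrM:3755-3771, minus strand: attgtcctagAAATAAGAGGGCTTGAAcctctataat

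Mitochondrial fragments were a small class in both libraries and a smaller one with SB431542. They made up 0.0997% of the reads of 15 to 17 nt with DMSO (0.0935 to 0.106, Clopper-Pearson interval) and 0.0742% with SB431542 (0.0670 to 0.0820), which is 997 and 742 reads per 1000000 (RPM). Relative to DMSO, the SB431542 value on the log2 scale was -0.42 (-0.60 to -0.25, exact conditional binomial interval), a 1.34-fold lower level. These values are shares of the reads of a length class in bulk RNA. They measure neither the number of mitochondria per cell nor the amount of RNA in each, and cannot tell these apart. The same genes read backwards, letters that no RNA from them carries, matched 0 reads in each library. That limits matches of unrelated letters to 3.03 RPM for DMSO and 5.80 RPM for SB431542. It cannot show reads from other genes that share a sequence with a mitochondrial gene. Sequences also found in another gene had 132 RPM with DMSO and 122 with SB431542. Reads differed in base composition between the libraries, with a mean GC content over all sequences of 60.7% with DMSO and 64.2% with SB431542, and mitochondrial reads were at 46.2% and 45.9%. Sequences outside the mitochondrial genes of similar composition (40 to 50% GC, at least 20 reads over both libraries) had their median log2 ratio at -0.46 (798 sequences), and division by such medians moved the mitochondrial value to -0.026.

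Most of the reads lay on the annotated strand of their gene, and most of those came from the ribosomal RNAs. Sense reads numbered 833 with DMSO and 327 with SB431542, or 84.4% and 85.2% of the mitochondrial reads. The ribosomal RNA genes held 495 and 173 sense reads, the transfer RNA genes 269 and 124, and the protein-coding genes 69 and 30. As shares of the mitochondrial reads these were 50.2% and 45.1% for ribosomal RNA, 27.3% and 32.3% for transfer RNA, and 6.99% and 7.81% for messenger RNA, and antisense reads made up the rest. In RPM per kilobase of gene, a scale that compares levels between genes, the ribosomal RNA genes stood at 186 to 216 with DMSO and 120 to 152 with SB431542. Transfer RNA genes ranged from 0 to 1356 and from 0 to 1376 on that scale, and protein-coding genes only up to 21.4 and 26.1. No read of either strand was found for mt-Td, mt-Tk, mt-Tr and mt-Atp8, and mt-Ti had antisense reads only, so 33 of the 37 genes had a read and 32 a sense read. The values for every gene and strand are shown in the plot of reads along the chromosome.

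**Figure D1:**
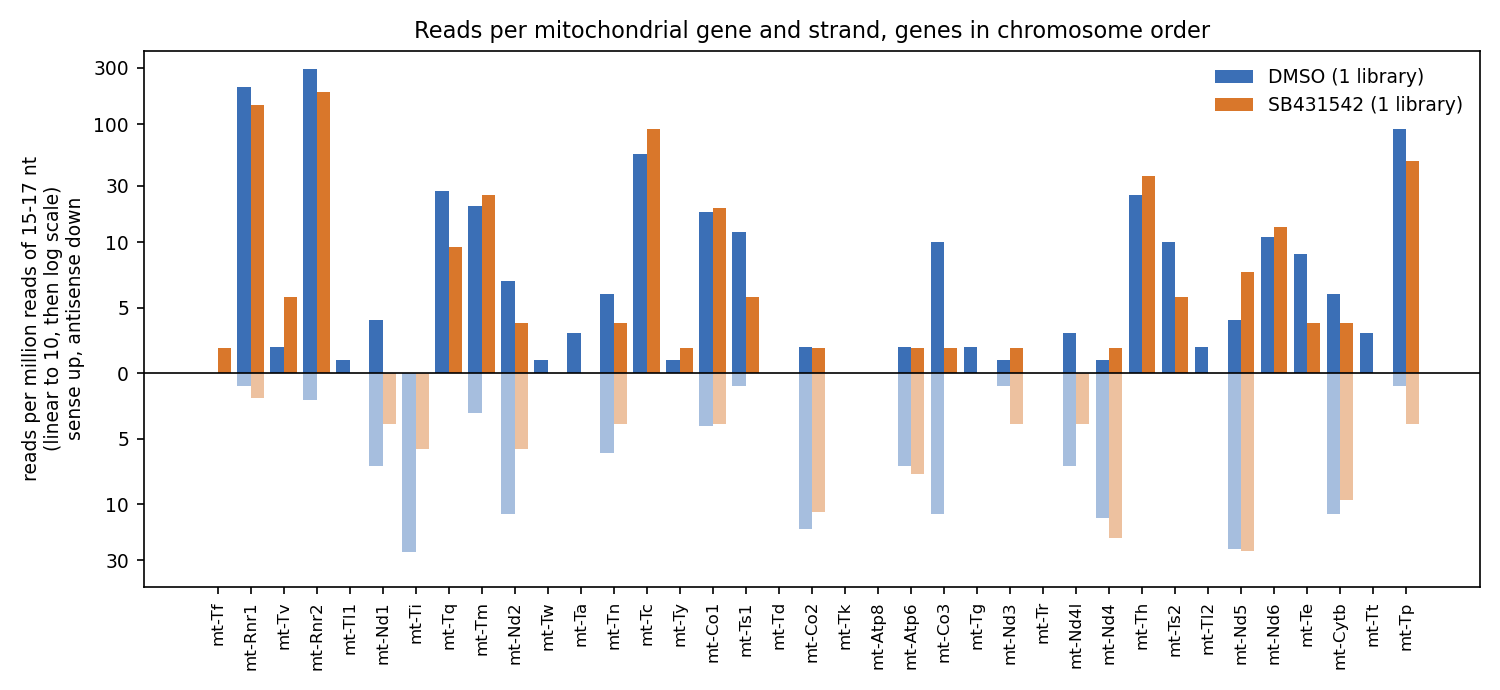
RPM (of reads of 15 to 17 nt) in each of the 37 mitochondrial genes, in chromosome order, on a scale that is linear to 10 and logarithmic beyond. Bars up are sense reads, bars down antisense reads, blue DMSO and orange SB431542 with 1 library each, and mt-Rnr2 and mt-Rnr1 stand highest in both.

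Reads were concentrated at few places. The 458 sequences fell into 198 sites of overlapping fragments, 96 of them with 1 read, and the 10 sites with the most reads held 66.5% of the mitochondrial reads with DMSO and 63.3% with SB431542. Of the distinct sequences, 326 (71.2%) were read once, 82 were found in both libraries, 24 had at least 10 reads over both and 3 at least 50.

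The ribosomal RNA of the large subunit, mt-Rnr2, gave the most reads of any mitochondrial gene, 291 with DMSO and 98 with SB431542. That is 294 and 189 RPM, a log2 ratio of -0.63 (-0.98 to -0.30), with the SB431542 library the lower. A single site at bases 1145 to 1172 of the gene (chrM:2238-2265) held 218 and 67 of these reads, or 74.9% (69.5 to 79.8) and 68.4% (58.2 to 77.4). Its log2 ratio was -0.76 (-1.18 to -0.36). The fragments there shared their last base and differed in their first, since 96.8% of the reads with DMSO and 98.5% with SB431542 ended at base 1161. The 3 commonest are written here with the 15 bases they share in capitals.
mt-Rnr2, bases 1145 to 1161: ttGAAATTTCGGTTGGG
mt-Rnr2, bases 1147 to 1161: GAAATTTCGGTTGGG
mt-Rnr2, bases 1146 to 1161: tGAAATTTCGGTTGGG
The 17-nt form had 116 reads with DMSO and 46 with SB431542, the 15-nt form 62 and 12, and the 16-nt form 33 and 8. Their log2 ratios were -0.39 (-0.92 to 0.11), -1.39 (-2.46 to -0.53) and -1.04 (-2.43 to 0.03) in that order, so the value of the shortest form lay furthest below 0, with intervals that overlap. The next site of the gene, at bases 1373 to 1390 (chrM:2466-2483), had 14 and 2 reads.

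The small-subunit ribosomal RNA, mt-Rnr1, had 204 reads with DMSO and 75 with SB431542, 206 and 145 RPM, and a log2 ratio of -0.50 (-0.91 to -0.12). Its reads came from a pair of sites. At bases 513 to 535 (chrM:582-604) there were 93 and 40 reads, a log2 ratio of -0.27 (-0.85 to 0.27), and at bases 672 to 693 (chrM:741-762) there were 90 and 23, a log2 ratio of -1.01 (-1.76 to -0.36). The first site thus held 45.6% of the gene's reads with DMSO and 53.3% with SB431542, and the second 44.1% (37.2 to 51.2) and 30.7% (20.5 to 42.4). Unlike the leading site of mt-Rnr2, neither had a single sharp end: over both libraries the commonest last base held 36.8% of the reads of the first and 46.0% of the second, against 97.2% at the mt-Rnr2 site. The coverage along both genes shows these 3 peaks in each library and little between them.

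**Figure D2:**
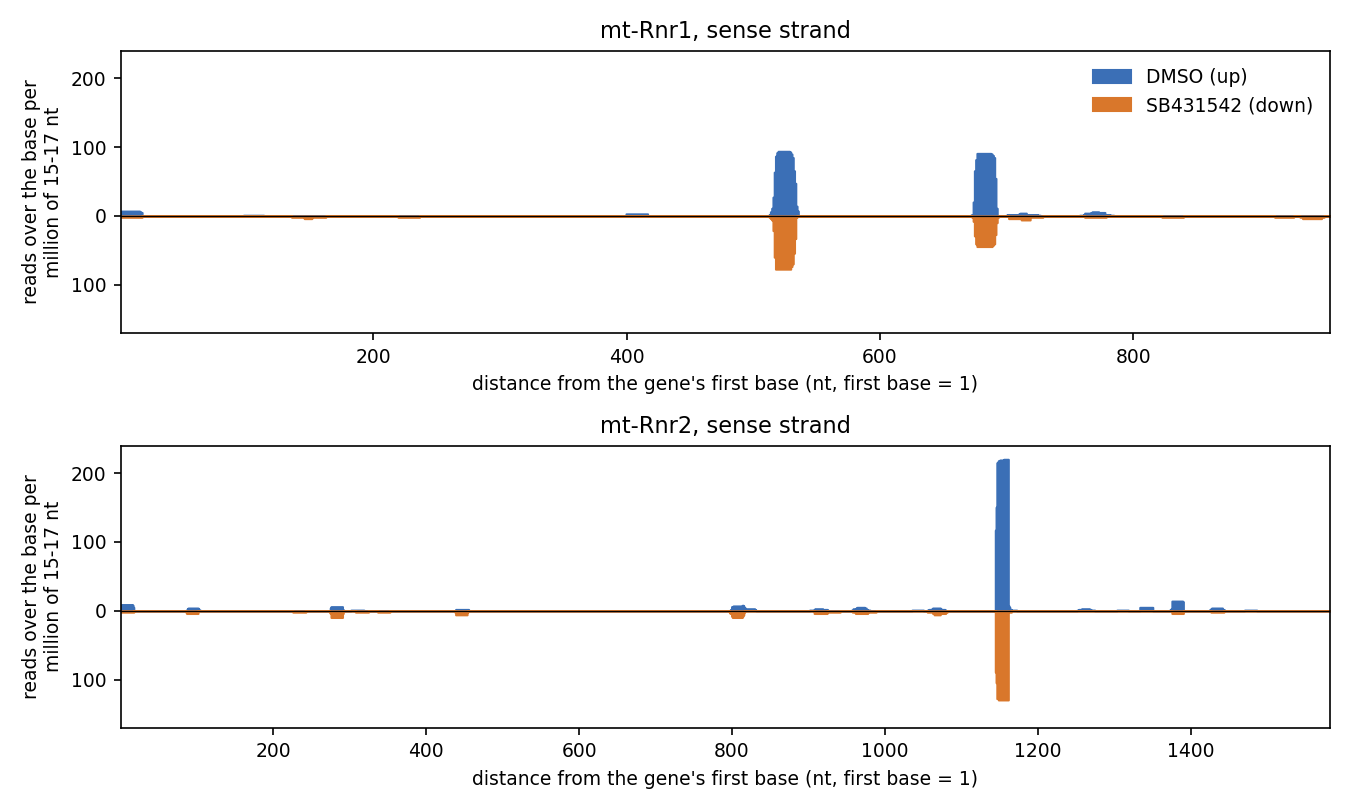
Reads over each base of mt-Rnr1 and mt-Rnr2 in RPM, against the distance from the first base of the gene in nt, with DMSO up and SB431542 down. The peaks lie at bases 513 to 535 and 672 to 693 of mt-Rnr1 and at bases 1145 to 1172 of mt-Rnr2 in both libraries.

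Both ribosomal RNAs together had 500 RPM with DMSO and 334 with SB431542, a log2 ratio of -0.58 (-0.84 to -0.33). After the correction for GC content the value was -0.18, and with each sequence counted once, after thinning of the deeper library, it was 0.047. Without the mt-Rnr2 site at bases 1145 to 1172 it was -0.45.

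Transfer RNA fragments came mainly from 5 of the 22 genes, each with its reads at 1 main site. Mitochondrial transfer RNAs as a group had 272 RPM with DMSO and 240 with SB431542 (log2 -0.18, -0.50 to 0.13), an interval that includes 0. It did not include 0 with edgeR (-0.38, -0.71 to -0.07) or DESeq2 (-0.34, -0.66 to -0.03) scaling, or without the commonest sequence of mt-Tc (-0.48, -0.85 to -0.13). Other alternatives moved the sum above 0, to 0.22 with the GC correction and to 0.08 without mt-Tp. The genes behind that sum stood on either side of 0.

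The gene for the cysteine transfer RNA, mt-Tc, was the only described entry with a higher value in the SB431542 library. It had 55 reads with DMSO and 47 with SB431542, although that library held fewer reads in all, which is 55.5 and 90.8 RPM and a log2 ratio of 0.71 (0.12 to 1.30). The interval included 0 with edgeR (0.51, -0.09 to 1.09) and DESeq2 (0.55, -0.04 to 1.14) scaling. As a share of the transfer RNA reads mt-Tc stood at 20.4% (15.8 to 25.8) with DMSO and 37.9% (29.3 to 47.1) with SB431542, which no scaling of the libraries alters. All of its reads lay within bases 25 to 45, around the anticodon, which a search for the GCA triplet placed at bases 29 to 31. The commonest fragment starts 2 bases before the anticodon and ends at base 43, with 28 reads in the DMSO library and 34 in the other (log2 1.21, 0.45 to 1.99), or 50.9% and 72.3% of the gene's reads. The other mt-Tc fragments together had 27 and 13 reads, a log2 ratio of -0.09 (-1.20 to 0.89), so the higher value of the gene rests on that 1 sequence.

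For mt-Tp, the proline transfer RNA, the order of the libraries was the opposite. It had 90 reads with DMSO and 25 with SB431542, 90.9 and 48.3 RPM, a log2 ratio of -0.89 (-1.61 to -0.26). All but 1 lay within bases 27 to 55 (chrM:15368-15396), and 76 of 90 and 17 of 25 began after the TGG anticodon at bases 31 to 33. This gene had 28 distinct fragments against 8 of mt-Tc. Apart from 1 read at base 1, the mt-Tp starts ran from base 27 to base 40 in the plot of start positions. Its commonest fragment, bases 39 to 55, had 26 reads with DMSO and 2 with SB431542, and without it the gene stood at -0.52 (-1.30 to 0.17). The reads of mt-Tp were rich in G and C, with a mean GC content of 64.2% with DMSO and 63.5% with SB431542, against 40.6% and 41.0% for mt-Tc. The correction for GC content moved mt-Tp to -0.84 and mt-Tc to 1.18, so the gap between these genes did not narrow.

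Fragments of mt-Th and mt-Tm, the histidine and methionine transfer RNAs, came mostly from the stretch that leads up to the anticodon and, in mt-Tm, into it. For mt-Th there were 25 and 19 reads (DMSO, then SB431542; log2 0.55, -0.40 to 1.46), all within bases 12 to 30, of which 14 and 7 ended at base 29, just before the GTG anticodon at bases 30 to 32. mt-Tm had 20 and 13 reads (log2 0.33, -0.81 to 1.39), and 14 and 10 of them ended at base 32, the second base of the CAT anticodon at bases 31 to 33. Neither interval excluded equal levels.

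The glutamine transfer RNA gene mt-Tq was different in that all of its reads, 27 with DMSO and 5 with SB431542, began at base 1, the mature 5′ end. Its log2 ratio was -1.39 (-3.23 to -0.10), but the gene fell short of the 50 reads over both libraries set for a description. mt-Ts1, a serine transfer RNA, had 12 and 3 reads, 7 and 2 of which started at base 1. A further 12 transfer RNA genes had sense reads, at most 13 each over both libraries.

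**Figure D3:**
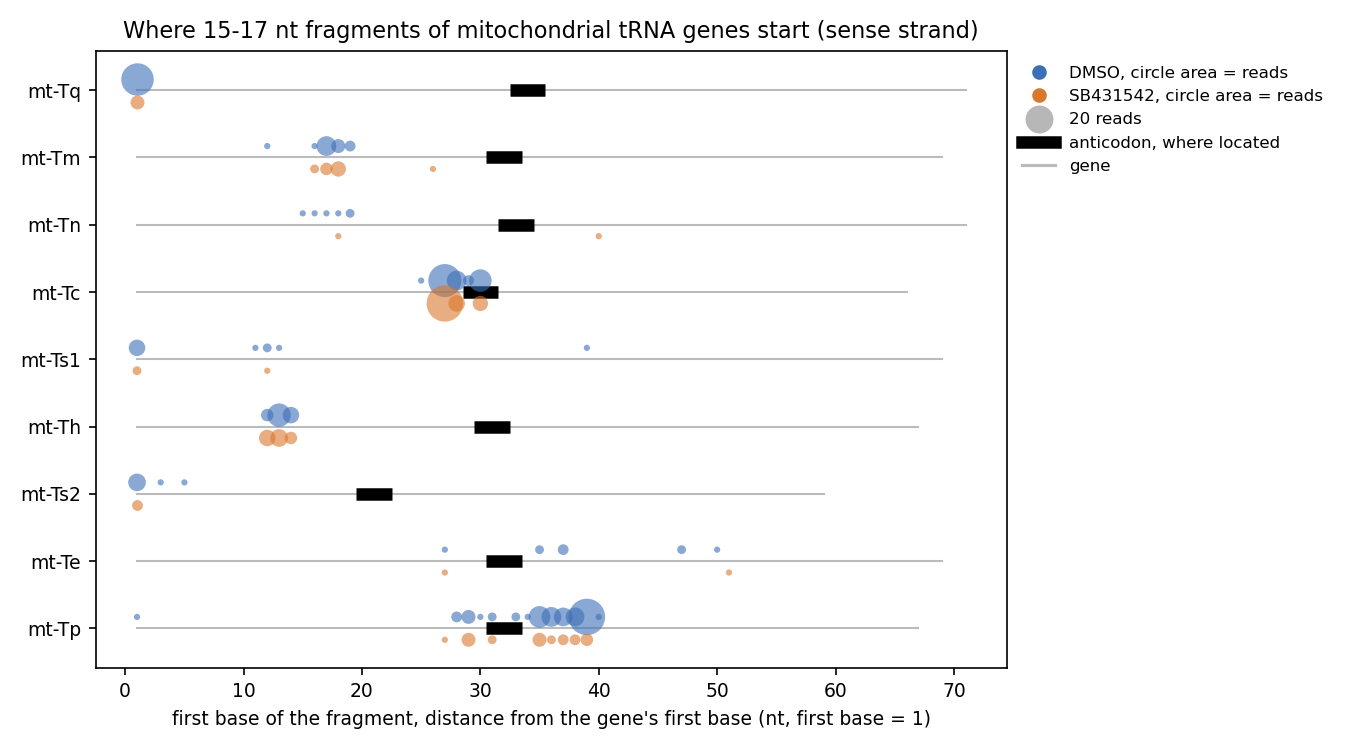
First base of each sense fragment, in nt from the first base of the gene, for the 9 transfer RNA genes drawn, with DMSO above the line and SB431542 below, circle area in proportion to reads and a black bar at the located anticodon. Starts lie at base 1 in mt-Tq, upstream of the anticodon in mt-Th and mt-Tm, at it in mt-Tc and mostly after it in mt-Tp.

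Over the 16 transfer RNA genes with sense reads whose anticodon could be placed, 71 of 256 reads with DMSO and 27 of 121 with SB431542 lay before it. Reads that spanned it numbered 62 and 53, those that began or ended within it 34 and 19, and those after it 89 and 22. The spanning class was mostly mt-Tc (42 and 41 reads) and the class after it mostly mt-Tp (76 and 17), so these counts restate the values of those genes.

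Messenger RNA fragments were few and scattered. Complex I genes, which encode subunits of NADH dehydrogenase, had 31 sense reads with DMSO and 15 with SB431542 over 7 genes. Complex IV genes, subunits of cytochrome c oxidase, had 30 and 12 over 3 genes, mt-Cytb of complex III had 6 and 2, and the ATP synthase genes of complex V had 2 and 1. The most reads were those of mt-Co1 (18 with DMSO, 10 with SB431542), followed by mt-Nd6 (11 and 7), mt-Co3 (10 and 1), mt-Nd2 (7 and 2), mt-Nd5 (4 and 4) and mt-Cytb (6 and 2). No protein-coding gene reached 50 reads, and the sum of the sense reads, 69.7 RPM with DMSO and 58.0 with SB431542, had a log2 ratio of -0.25 (-0.93 to 0.37). Reads of the 13 protein-coding genes fell into 128 sites, none above 13 reads.

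Many of the matches to messenger RNA genes were shared with other genes. Nuclear genomes carry inserted copies of mitochondrial DNA, some of them annotated as pseudogenes. Of the reads in protein-coding mitochondrial genes, both strands together, 56.5% with DMSO and 64.6% with SB431542 also matched a transcript of another gene. The same share was 2.02% and 2.89% for ribosomal RNA sense reads and 6.32% and 4.84% for transfer RNA sense reads. Over all mitochondrial genes 163 of the 458 sequences matched another gene, with 131 and 63 reads (log2 -0.11, -0.58 to 0.32). Of those sequences 126 matched a pseudogene, and 48 matched a gene that is no pseudogene (35.3 RPM with DMSO and 42.5 with SB431542). The 295 sequences found in no other gene had 856 and 321 reads and a log2 ratio of -0.48 (-0.67 to -0.29). For mt-Co1, 7 of 18 and 8 of 10 sense reads were found elsewhere too, and without them it had 11 and 2.

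Antisense reads were nearly absent from the ribosomal RNA genes and outnumbered sense reads in the protein-coding genes. The ribosomal RNA genes had 3 antisense reads with DMSO and 1 with SB431542, with 99.4% of their reads sense in each library. The transfer RNA genes had 36 and 7, and the protein-coding genes 115 and 49. Of the 13 protein-coding genes 10 had more antisense than sense reads over both libraries, mt-Co1 and mt-Nd6 had more sense reads and mt-Atp8 had none. In mt-Co3 (12 against 11) and mt-Nd3 (3 against 2) the strands were nearly equal. These counts per gene include reads also found in another gene. All genes of that kind except mt-Nd6 are annotated on the plus strand, so 11 of the 13 had more reads of the minus strand, mt-Nd6 among them. Minus-strand reads made up 68.5% (61.2 to 75.1) of the reads in these genes with DMSO and 70.9% (59.6 to 80.6) with SB431542. Among sequences found in no other gene the share was 65.0% (53.5 to 75.3) and 78.6% (59.0 to 91.7). Among protein-coding genes the most antisense reads were those of mt-Nd5 (24 with DMSO, 13 with SB431542), mt-Nd4 (13 and 10) and mt-Co2 (16 and 6), while mt-Co3 had 12 and 0, where a count of 0 allows up to 5.80 RPM. All antisense reads together stood at 156 and 110 RPM (log2 -0.49, -0.96 to -0.05), and at -0.31 (-0.81 to 0.15) without mt-Ti.

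The antisense reads of mt-Ti lay next to mt-Tq, with which the gene overlaps on the opposite strand. mt-Ti, the isoleucine transfer RNA, had no sense read in either library and 25 antisense reads with DMSO and 3 with SB431542, a log2 ratio of -1.93 (-4.49 to -0.41). It was singled out after these values had been seen. Of the 28 reads over both libraries 25 began 1 base after the last base of mt-Tq, and 3 began 2 bases after it, where, as background, the cut by ELAC2 leaves a new 5′ end. The mt-Tq reads at its own 5′ end and these reads beyond its 3′ end were both few with SB431542, at 5 and 3. Together they had 52 reads in the DMSO library and 8 in the other (log2 -1.69, -3.05 to -0.68). This sum was formed after both low values were seen, so its interval below 0 follows from that choice. Their mean GC content was 35.4% with DMSO and 34.8% with SB431542, and the median log2 ratio of other sequences at 30 to 40% GC was -0.72 (254 sequences). The GC correction moved mt-Tq to -0.72 and the mt-Ti antisense reads to -1.29. The part of GC content in the remaining difference was not tested.

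Few fragments otherwise lay at the ends of genes. Sense reads that began exactly at the first base of a gene numbered 60 with DMSO and 12 with SB431542 (log2 -1.34, -2.42 to -0.48), in 7 genes: mt-Tq had 27 and 5 of them, mt-Rnr2 9 and 1, mt-Ts2 8 and 3, mt-Rnr1 7 and 1, mt-Ts1 7 and 2, and mt-Tp and mt-Co2 1 and 0 each. The remaining sense reads, 773 and 315, had a log2 ratio of -0.36 (-0.55 to -0.17), with an interval that overlaps the other. Reads at base 1 had a mean GC content of 37.7% with DMSO and 36.4% with SB431542, lower than the 47.2% and 46.3% of the remaining sense reads. Within 2 nt of the 3′ end of a transfer RNA gene there were 3 reads in each library, and at the 3′ end of the ribosomal RNA genes 0. Reads that started 1 base after a transfer RNA gene were found behind mt-Tq (22 and 3), mt-Tv (9 and 1), mt-Th (8 and 3) and mt-Tt (1 and 2). Behind mt-Tv and mt-Th that base is also base 1 of the next gene, mt-Rnr2 and mt-Ts2.

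Mitochondrial fragments were close to all reads in length and differed from them in base composition. Their mean length was 16.33 nt against 16.29 nt with DMSO, and 16.38 nt against 16.29 nt with SB431542. In the mitochondrial reads 17 nt was the commonest length, with 52.8% of the reads with DMSO (49.6 to 55.9) and 57.0% with SB431542 (51.9 to 62.0), against 49.5% and 49.1% of all reads. At 16 nt the shares were 27.3% (24.5 to 30.1) and 24.0% (19.8 to 28.5), against 30.5% and 30.4%, so at both lengths the share of all reads lay outside the mitochondrial interval in each library. At 15 nt they were 19.96% and 19.01%, against 20.1% and 20.5%. A single mt-Rnr2 fragment, bases 1145 to 1161, gave 116 of the 521 mitochondrial reads of 17 nt with DMSO and 46 of 219 with SB431542. With DMSO the higher share at 17 nt and the lower share at 16 nt rested on that sequence, and neither was left without it. With SB431542 both differences from all reads were smaller without it, and their intervals were not computed. A C was the first base in 8.61% and 9.11% of the mitochondrial reads, against 30.9% and 34.3% of all reads, and a T in 35.6% and 43.0% against 19.5% and 18.7%. Among the reads with a first T, the mt-Rnr2 fragment of bases 1145 to 1161 gave 116 of 351 with DMSO and 46 of 165 with SB431542. The last base was G in 44.0% and 46.4%, near the 44.6% and 48.1% of all reads. Reads of the leading mt-Rnr2 site that end at base 1161, a G, gave 211 of those 434 reads with DMSO and 66 of 178 with SB431542. The nearness to all reads in the last base thus rests on that site. The mitochondrial genes themselves have a GC content of 36.7%, below that of their fragments.

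None of the mitochondrial genes with enough reads for a description was 2-fold apart between the libraries. Of 326 genes with at least 50 sense reads over both libraries, mitochondrial or nuclear, 3.07% were at least 2-fold higher with SB431542 and 8.59% at least 2-fold lower, 11.7% in either direction, and 58% were lower by any amount. The 4 mitochondrial entries (mt-Rnr2, mt-Rnr1, mt-Tp and mt-Tc, all sense) included 0 at least 2-fold apart and 3 that were lower. Their median log2 ratio was -0.57, and that of all 326 genes was -0.14. Among single sequences with at least 50 reads, 3 were mitochondrial: the mt-Tc fragment of bases 27 to 43 was at least 2-fold higher, the mt-Rnr2 fragment of bases 1147 to 1161 at least 2-fold lower, and the mt-Rnr2 fragment of bases 1145 to 1161 lay between. Of all 2446 such sequences 6.75% were at least 2-fold higher, 13.7% at least 2-fold lower, 20.4% in either direction, and 56.3% lower by any amount, with a median of -0.09.

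**Figure D4:**
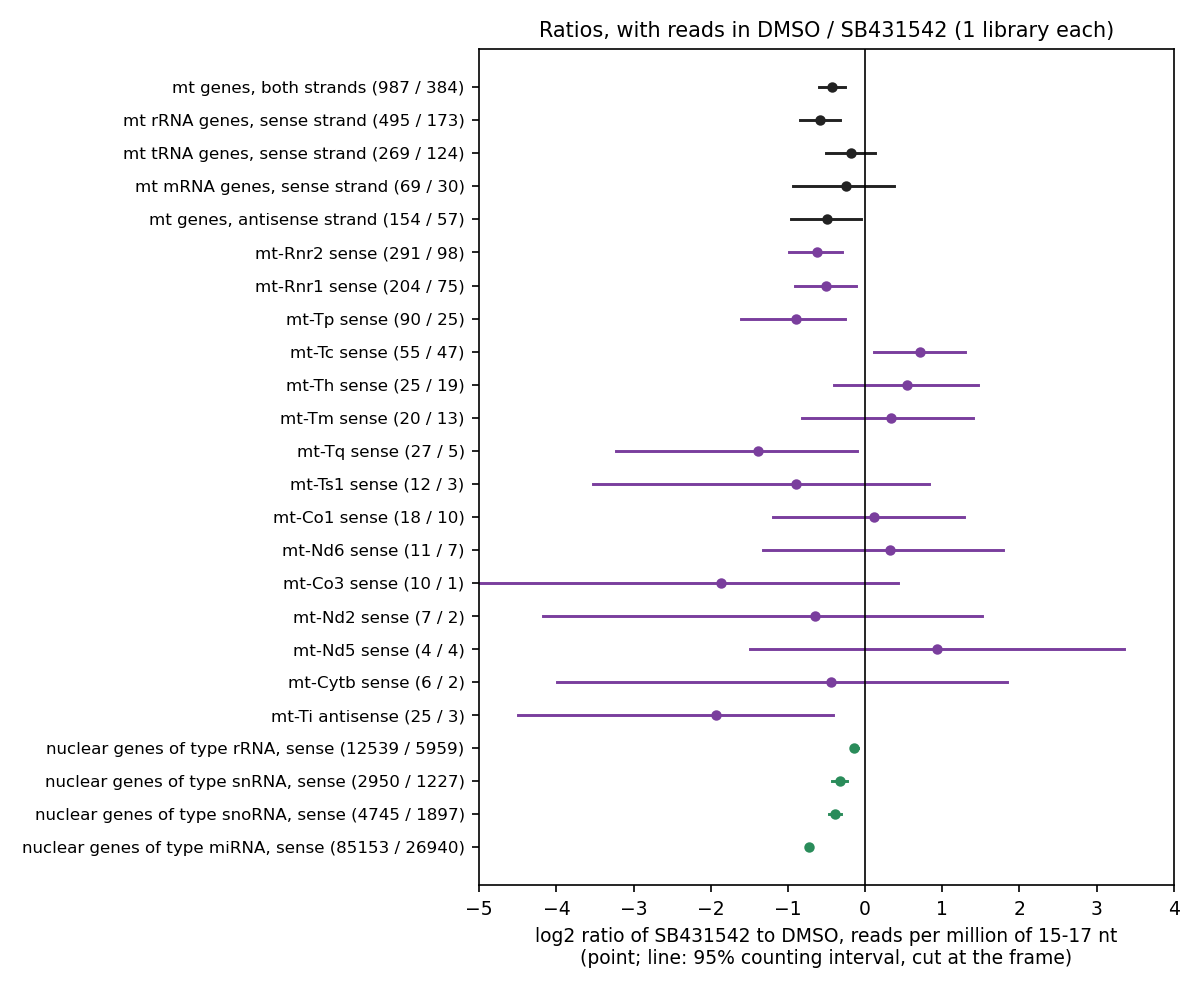
Log2 ratio of SB431542 to DMSO in RPM (points) with the 95% counting interval (lines) for the mitochondrial sums (black), single genes (purple) and nuclear RNA classes (green), and the reads of each library in brackets. Among the mitochondrial rows mt-Tc alone has an interval above 0, and both ribosomal RNAs, mt-Tp, mt-Tq and the mt-Ti antisense reads lie below it.

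Nuclear small RNA classes matched the same way gave a yardstick within each library. Sense reads of nuclear genes annotated as rRNA had a log2 ratio of -0.14 (-0.18 to -0.09), snRNA genes -0.33 (-0.43 to -0.23), snoRNA genes -0.39 (-0.46 to -0.31) and miRNA genes -0.72 (-0.74 to -0.70), and the mitochondrial sense reads stood among them at -0.41 (-0.60 to -0.23). For every 100 snoRNA reads there were 17.6 mitochondrial sense reads with DMSO and 17.2 with SB431542, and for every 100 snRNA reads 28.2 and 26.7. Set against the nuclear rRNA genes the numbers were 6.64 and 5.49, and against miRNA genes 0.978 and 1.21. With the class total taken as fixed, the log2 ratio was -0.03 (-0.22 to 0.16) against snoRNA and -0.08 (-0.27 to 0.10) against snRNA. It was -0.28 (-0.46 to -0.09) against rRNA and 0.31 (0.12 to 0.50) against miRNA. The direction thus depends on the class, and it was upward against miRNA genes only. Mir293 alone had 38937 of the 85153 miRNA reads with DMSO and 10364 of 26940 with SB431542. The upward value against miRNA genes thus rests in part on that 1 gene, and an interval against the other miRNA genes was not computed. The plot of ratios by GC content sets the mitochondrial groups against other sequences of like composition, where the medians run from -0.72 at 30 to 40% GC to 0.41 at 90 to 100%.

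**Figure D5:**
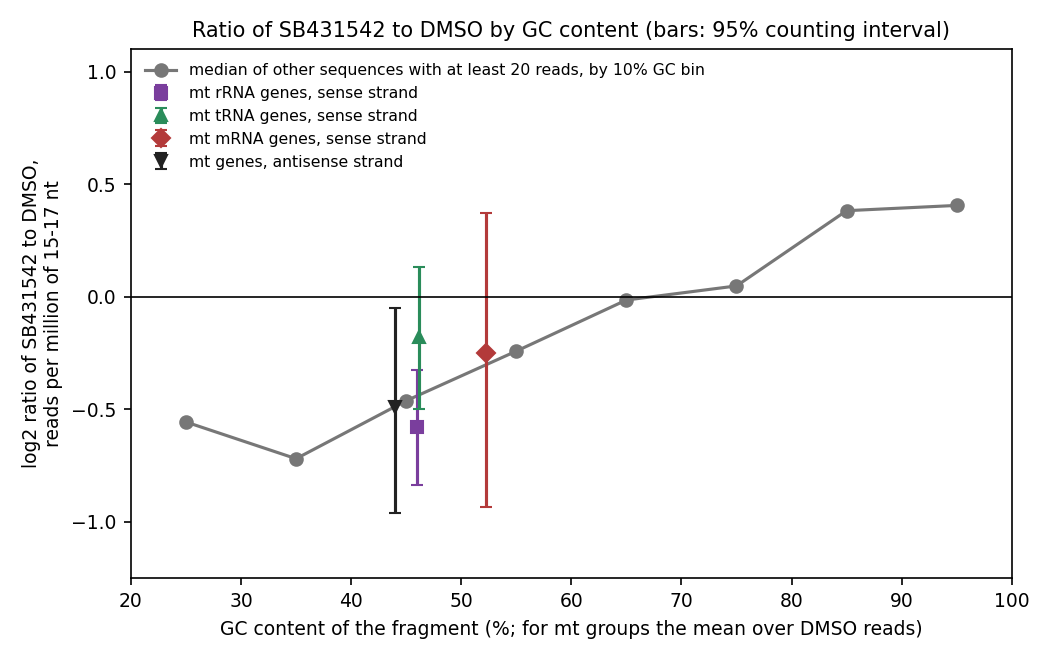
Log2 ratio of SB431542 to DMSO against GC content in percent, as medians of sequences outside the mitochondrial genes in bins 10% wide (grey line) and as mitochondrial sums at their mean GC content (symbols with 95% counting intervals). The interval of each mitochondrial group includes the level of the grey line at its GC content.

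The libraries held 1190074 reads of all lengths with DMSO and 645925 with SB431542, all of 3 to 17 nt, so these totals describe a length class and not the sequencing depth. As a check of the cell type, fragments of the miR-290-295 hairpins, a cluster typical of mouse stem cells, had 39534 reads with DMSO and 10514 with SB431542 and were found for all 7 hairpins, but 38937 and 10364 of these reads were those of Mir293 alone. The 7 pluripotency messenger RNAs looked up, Pou5f1, Sox2 and Nanog among them, had 55 and 38 sense reads, and 5 fibroblast messenger RNAs had 11 and 19. At such counts the cell type cannot be read from messenger RNA fragments. The treatment and the preparation of its 1 library cannot be told apart.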

How the data were processed

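Total RNA was taken up in TRIzol and libraries were made with a TruSeq RNA kit, per the labels' protocols. The deposited files hold raw read counts for each distinct sequence of 3 to 17 nt, without normalization, for 1 library in each group. How reads were trimmed, size-selected or aligned is not given in the sources used here. In the submitters' processing notes the build is mm9, whereas coordinates here are those of GRCm38 (GENCODE M21), with strand relative to that reference.

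Sequences of 15 to 17 nt were matched exactly over their whole length to both strands of the 37 mitochondrial gene sequences, and to all GENCODE transcripts for matches elsewhere. No sequence matched more than 1 place in the mitochondrial genes. Levels are reads per 1000000 reads of 15 to 17 nt (RPM). Ratios use a pseudocount of 0.5 read, and their intervals are exact conditional binomial ones. Sites join fragments that overlap by at least 10 nt. Anticodons were placed as the triplet of each transfer RNA followed by A or G.

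An entry (1 gene and strand) needed 50 reads or more in sum for a description. Named were both ribosomal RNA genes, the 6 transfer RNA and 6 protein-coding genes with the most sense reads, described entries at least 2-fold apart, and the 10 commonest sequences (at most 3 from 1 gene and strand) with the highest and lowest ratio among those with at least 50 reads. The antisense totals of mt-Nd5, mt-Nd4, mt-Co2 and mt-Co3, and the sums over starts at base 1, were chosen after their values were seen. So were the mt-Ti antisense reads and their sum with mt-Tq. Members, lists and rules were chosen with earlier results of these data known. Matching was checked on fragments drawn from the same gene sequences, which shows only that the code finds them. Intervals were checked on simulated counts that vary by counting error alone, without amplification or differences between libraries. Alternatives were other scales, a GC correction, length and read minimums, and matches elsewhere. The GC correction divides SB431542 counts by the median ratio of sequences outside the mitochondrial genes with at least 20 reads in bins 10% wide. Scaling factors came from DESeq2 1.42.0 and edgeR 4.0.16 (R 4.3.3), and the rest from Python 3.11.15 (scipy 1.17.1, numpy 2.4.6, matplotlib 3.10.9).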

Additional observations from a re-analysis of the deposited data

How the results depend on the processing

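The sums over both strands, ribosomal RNA, transfer RNA, messenger RNA and antisense reads had 69 values under the alternatives. Of these 61 lay within the counting interval of the reported value, 7 outside it, and 1 was reversed, and 64 were below 0. The GC correction moved the sum of both strands to -0.026, ribosomal RNA to -0.18, transfer RNA to 0.22 and antisense reads to -0.049. With edgeR factors the sum of both strands was -0.63. With each sequence counted once, after thinning of the DMSO library, the sum of both strands was -0.12 and ribosomal RNA 0.047, with mt-Rnr2 at 0.027, mt-Rnr1 at 0.068, mt-Tp at -0.13 and mt-Tc at -0.53. Without its commonest sequence mt-Tc was -0.090. The cause was not tested. Alternatives chosen after seeing the data left transfer RNA at -0.53 (-0.93 to -0.16) without mt-Tc and at 0.08 without mt-Tp. Scales shift all log2 ratios alike, by -0.05 with all reads as the total, -0.21 with edgeR and -0.16 with DESeq2. With no read minimum 50 entries had a ratio, 12 of them at least 2-fold lower and 4 higher. Most of the 12 had few reads with DMSO and 0 with SB431542 (mt-Ta 3 and 0, mt-Tg 2 and 0), and the 4 had as few (mt-Tv 2 and 3). Such ratios depend on the pseudocount. The share over all genes without a minimum was not computed, so these counts show no excess of lower entries. With a minimum of 200 reads 2 entries were left.

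Matching to the nuclear genome and to the whole mitochondrial chromosome was not run, as no genome sequence was used here. Junctions between abutting genes stood in for the second, chosen after seeing the data. No paired analysis was possible because each group had 1 library and no test was made. Reads per gene limit most ratios, since only 4 entries reached 50 reads.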

Other observations

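Reads of 14 nt, outside the length range described, matched the mitochondrial genes 148 times with DMSO and 68 times with SB431542, or 1325 and 1035 per 1000000 reads of that length (log2 -0.35, -0.79 to 0.07). The genes read backwards matched 1 and 0 reads of 14 nt.

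Ends that the genome does not encode were looked for separately. Fragments that carry all or part of the CCA added to transfer RNAs numbered 0 in both libraries, and messenger RNA ends with added A were read 1 time in each, both in mt-Nd3. A single read, with DMSO, spanned the junction of abutting genes, that of mt-Ti and mt-Tq. The limit that a count of 0 sets is 3.03 RPM for DMSO and 5.80 RPM for SB431542.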
